A study of Homo sapiens with 3 samples.

Results

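The genes described here encode the factors that start, elongate and end translation on cytosolic ribosomes, together with the kinases and partners that share their gene symbols. A gene was taken where its symbol, as written in the annotation of each edited region, started with EIF or EEF followed by a digit, or was ETF1, GSPT1 or GSPT2, and symbols ending in P and a number were left out to remove pseudogenes, which also removed EIF4EBP2, a protein-coding gene of a 4E-binding protein. This gave 54 of the 9904 genes with an edited region in any sample. They held 416 of 40843 regions, of which 44 also listed a gene outside the group, such as the small nucleolar RNAs inside EIF4A2. The readthrough EEF1E1-BLOC1S5 was counted as a gene of its own and shares clusters with EEF1E1.

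Initiation factors bring the initiator tRNA, the small ribosomal subunit and the mRNA cap together and let the subunit scan to the start codon. Elongation factors then deliver aminoacyl-tRNAs and move the ribosome along, and release factors free the finished protein at the stop codon. The mRNAs of these factors are abundant in growing cells, and RBFOX2, the protein used as a probe here, is an RNA-binding protein known as a regulator of splicing that recognises GCAUG.

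The samples were 3 replicates, which the study calls biological, of HEK293XT cells, a Lenti-X HEK293T line derived from human embryonic kidney, all of wild-type genotype. All carried a doxycycline-induced fusion of RBFOX2 to APOBEC1, a cytidine deaminase that turns C into U near the places where the fusion sits on RNA, and were collected at 72 h. The labels name the treatment as a transient transfection while the growth protocol speaks of stable lines, and no control lacking the fusion was used here, so no background level of editing can be set beside these values. The unit of measurement was the cluster, a stretch of tiled windows in which the FLARE pipeline found more edited C bases than its background model allowed, and the edit fraction was the number of edited bases over the number of covered C bases in it. With a single condition there was no contrast between groups, and the replicates gave the error of each value.

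Translation factor genes held 140, 161 and 115 clusters in replicates 1, 2 and 3, a mean of 138.7 ± 23.0 (SD, n = 3), which was between 0.979% and 1.06% of all clusters. They held a larger part of the reads in clusters, between 1.73% and 2.07%. Their clusters lay in well covered RNA: the median of the mean read depth was 81.0, 92.7 and 67.7 in the 3 replicates, against 25.1, 24.7 and 21.1 over all clusters. Their median edit fraction was 1.03%, 1.05% and 1.01%, below the 1.64%, 1.65% and 1.80% over all clusters. Similar medians were found in cytosolic ribosomal protein genes, at 1.02% ± 0.392, and in aminoacyl-tRNA synthetases, at 1.03% ± 0.302 (SD, n = 3). In a list of other genes of translation, described below, it was 1.16% ± 0.148. Read depth and edit fraction are tied, because FLARE sets a background rate for each class of depth and a shallow cluster passes only at a high edit fraction. At a mean read depth of 50 or more the median edit fraction was 0.719% ± 0.0146 for translation factors and 0.784% ± 0.00975 for all clusters (SD, n = 3). The gap was smaller than over all depths but larger than either SD. Translation factors were lower in every replicate, with 0.7267%, 0.7025% and 0.7285% against 0.7742%, 0.7937% and 0.7828%. This class held 66.1% of their clusters on average. It has no upper bound and depth within it was not matched, so the part of depth in this gap was not tested. In the class from 10 to 20 reads the medians were 2.25% ± 0.456 and 2.32% ± 0.0821, which lay within the spread between replicates. Between 20 and 50 reads the medians of translation factors were the higher ones, on few clusters: 1.73% ± 0.481 against 1.65% ± 0.0419 from 20 to 30 (17 clusters), 1.97% ± 0.517 against 1.39% ± 0.00561 from 30 to 40 (12 clusters) and 1.45% ± 0.373 against 1.23% ± 0.0246 from 40 to 50 (34 clusters).

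Of the 54 genes, 31 had a cluster in every replicate, 12 in 2 replicates and 11 in 1 replicate. The share with a cluster in every replicate was 57.4%, and over all genes it was 37.9%. Among cytosolic ribosomal protein genes, which are also highly expressed, the share was 49.2% of 63 genes, and among aminoacyl-tRNA synthetases 48.4% of 31 genes. The median read depth was 515, 618 and 546 in clusters of ribosomal protein genes and 58.6, 71.7 and 48.1 in those of synthetases, and the part of depth in these shares was not tested. A list of 42 other genes of translation and its control included poly(A)-binding proteins, 4E-binding proteins and mitochondrial factors. It had 36 genes with a cluster, and 19 of these 36, or 52.8%, had one in every replicate. The shares above likewise count only genes with a cluster.

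**Figure D1:**
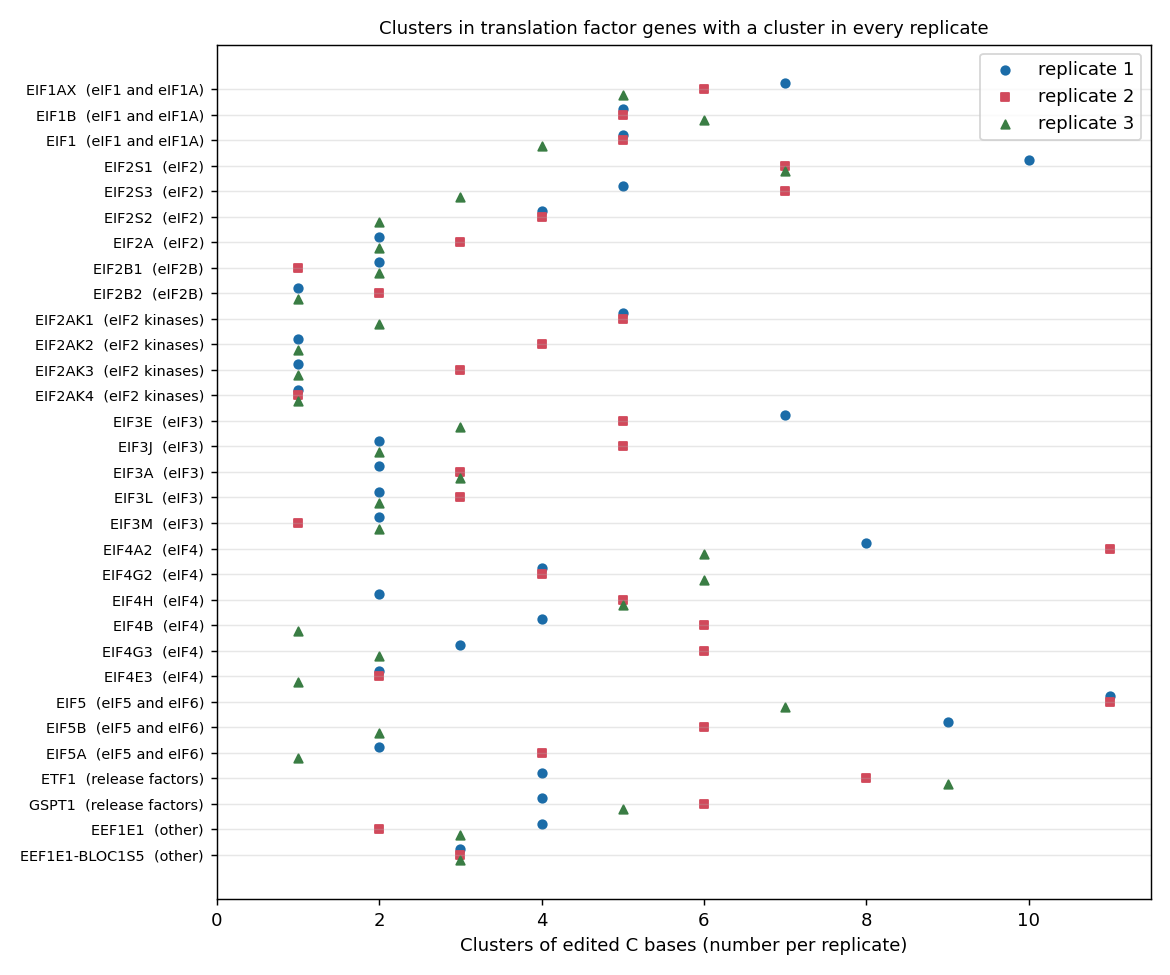
Number of clusters in each replicate (x axis) for the 31 translation factor genes with a cluster in every replicate (y axis, with the role of each gene), one point per replicate. EIF5 reached 11 clusters in replicates 1 and 2, and EIF2AK4 had 1 cluster in each replicate.

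The genes with the most clusters were EIF5, EIF4A2, EIF2S1, ETF1 and EIF1AX, which together held 117 of the 416 clusters. EIF5, which makes eIF2 hydrolyse its GTP at the start codon, had 11, 11 and 7 clusters. EIF4A2, a helicase that unwinds the leader of the mRNA, had 8, 11 and 6. EIF2S1 encodes the alpha subunit of eIF2, the one that stress kinases phosphorylate, and had 10, 7 and 7. ETF1, the release factor that reads stop codons, had 4, 8 and 9 clusters, and EIF1AX, which helps the small subunit to scan, had 7, 6 and 5. In 4 of these 5 genes the counts of clusters varied by 1.73 to 2.65 (SD, n = 3) around means between 7 and 9.67, and in EIF1AX by 1 around 6. Neighbours in this order differed by less than the larger SD of the pair, while EIF5 at the top exceeded EIF1AX in every replicate.

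A cluster was taken as found in all replicates when, strand by strand, it shared 1 base or more with a cluster of each other replicate. That was so for 31, 32 and 29 translation factor clusters in replicates 1, 2 and 3, or 22.1%, 19.9% and 25.2%, against 10.6%, 9.86% and 13.1% of all clusters. Clusters joined by overlap formed 304 loci, and 33 of them, in 17 genes, had a cluster of every replicate. That is 10.9% of the loci of these genes, and over all loci of the series the share was 4.77%. The other loci had clusters of 2 replicates (39 loci) or of 1 replicate (232 loci). In 5 of the 33 loci the clusters were linked in a chain and no single base was covered by all replicates. Cytosolic ribosomal protein genes had higher shares than translation factors, at 31.95% ± 6.10 of clusters (SD, n = 3) and 16.1% of loci. Among aminoacyl-tRNA synthetases the shares were 12.35% ± 2.05 and 6.62%, and among the other genes of translation 11.7% ± 2.55 and 5.39%.

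Recurrence followed the number of edited reads in a cluster. Of the translation factor clusters with 1 edited read, 3 of 85 were found in all replicates, and of those with 2 edited reads, 7 of 97. The numbers were 28 of 129 clusters with 3 to 5 edited reads, 26 of 64 with 6 to 10, and 28 of 41 with 11 or more. In the class of 2 edited reads the share was 7.004% ± 4.10 for translation factors and 4.06% ± 1.44 for all clusters (SD, n = 3). In the class of 3 to 5 it was 22.8% ± 5.79 and 13.6% ± 4.36, and translation factors were higher in every replicate, with 24.4%, 16.4% and 27.6% against 11.04%, 11.01% and 18.6%. In the class of 6 to 10 edited reads it was 40.7% ± 3.02 for translation factors and 41.6% ± 5.65 for all clusters (SD, n = 3). In the class of 11 or more it was 69.6% ± 7.20 and 80.0% ± 3.71. Translation factors were lower there in every replicate, with 64.3%, 66.7% and 77.8% against 80.5%, 76% and 83.4%. The direction was thus not the same in all classes. Clusters with a single edited read made up 22.9%, 21.1% and 16.5% of the translation factor clusters in the 3 replicates and 28.0%, 31.1% and 33.0% of all clusters.

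**Figure D2:**
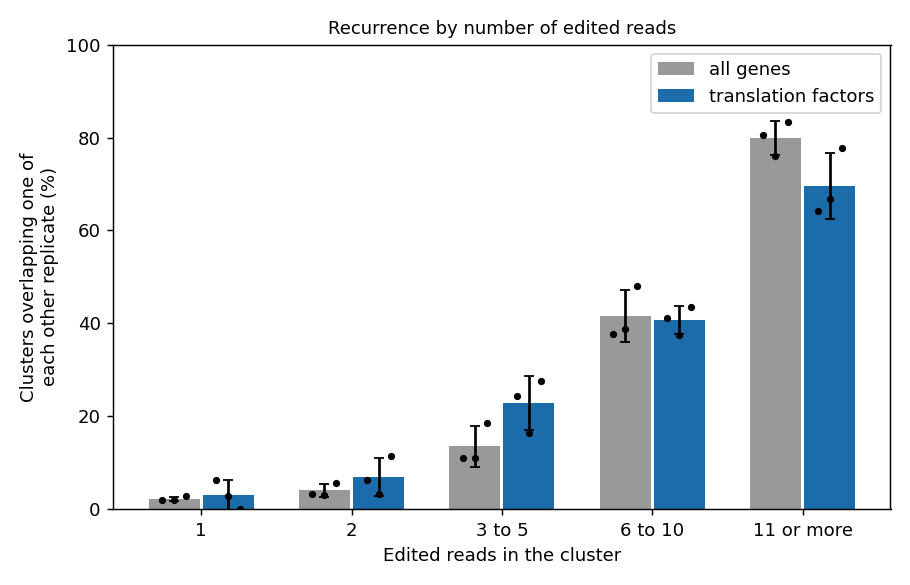
Share of clusters that overlapped a cluster of each other replicate (y axis, %) by the number of edited reads in the cluster (x axis), for all genes and for translation factors. Bars are means of 3 replicates, error bars are SD and points are replicates. The means of both sets rise from 2.24% and 3.06% at 1 edited read to 80.0% and 69.6% at 11 or more.

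Among the initiation factors that guard the choice of start codon, EIF1 held 3 loci found in all replicates, and they were among the deepest. All positions are given in hg19, the build named in the submitters' processing notes. The locus at chr17:39847695-39847859, in an exon numbered 2 in the files, had 24, 32 and 32 edited reads and an edit fraction of 0.405%, 0.520% and 0.583%, or 0.502% ± 0.0902 (SD, n = 3). A second locus of the same exon at chr17:39847065-39847109 had 14, 18 and 19 edited reads and 0.504% ± 0.106. The third, at chr17:39846338-39846382 in the exon numbered 0, had 10, 14 and 10 edited reads and 0.337% ± 0.0701, the lowest mean of the 33 loci. The mean read depth of these loci lay between 284 and 807. EIF1 thus gave many edited reads at a low edit fraction in every replicate.

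EIF1AX had 2 such loci, both in the exon numbered 0, the 3′-most numbered exon of this gene on the minus strand. At chrX:20145682-20145786 the edit fraction was 1.05%, 1.84% and 1.00%, or 1.30% ± 0.469 (SD, n = 3), on 19, 7 and 2 edited reads. The number of edited reads there differed more between replicates than the edit fraction did, and no base of this locus was covered by a cluster of all replicates. EIF1B, a close relative of EIF1, held 3 loci with mean edit fractions between 0.539% and 0.796%. The 3 genes had clusters in all replicates, and the fourth of the list, EIF1AY, had none.

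The eIF2 complex carries the initiator tRNA, and its 3 subunit genes EIF2S1, EIF2S2 and EIF2S3 had 4, 1 and 2 loci found in all replicates. In EIF2S1 the clusters were spread over 7 exons. At chr14:67848371-67848407, in the exon numbered 12, the edit fraction was 1.34%, 1.42% and 2.01%, or 1.59% ± 0.365 (SD, n = 3), on 3, 3 and 2 edited reads. The loci at chr14:67831536-67831725 and chr14:67850033-67850077 had edit fractions of 1.29% ± 0.524 and 1.20% ± 0.591. These shares rest on 1 to 7 edited reads in each replicate, and their differences from one another were smaller than the spread between replicates. In EIF2S3, the gamma subunit, the locus at chrX:24095725-24095844 had 23, 10 and 3 edited reads and an edit fraction of 0.690% ± 0.236. EIF2A, which is not a subunit of the complex, had 2, 3 and 2 clusters, and EIF2D had none.

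The eIF2B complex recharges eIF2 with GTP, and 4 of its 5 genes had a cluster. EIF2B1 held the only locus of the complex found in all replicates, at chr12:124105659-124105778 in the exon numbered 0. Its edit fraction was 0.937%, 2.67% and 2.67%, or 2.10% ± 1.00 (SD, n = 3), on 5, 11 and 9 edited reads. Replicate 1 was lower than the others by 2.86-fold at this locus. EIF2B5 had no cluster. The 4 kinases that phosphorylate eIF2 all had clusters in every replicate, 26 in all, and none of their 24 loci was found in all replicates. Clusters of EIF2AK3 and EIF2AK4 had a mean read depth between 5.30 and 14.9 and edit fractions between 2.10% and 7.41%. In EIF2AK2 the depth lay between 5 and 23.5 and the edit fraction between 1.995% and 11.4%. EIF2AK1 held 12 of the 26 clusters, with depths between 7.37 and 167 and edit fractions between 0.383% and 6.25%. It had 2 loci with clusters of 2 replicates. Over all genes, the median in clusters covered by fewer than 10 reads was 5.03% ± 0.134 (SD, n = 3), and from 10 to 20 reads it was 2.32% ± 0.0821.

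EIF3 is the largest initiation factor and bridges the small subunit and the mRNA. Of the 14 genes in its list, 12 had a cluster and 5 had one in every replicate, and 2 of its 51 loci were found in all replicates. The locus of EIF3E in the exon numbered 0 had an edit fraction of 1.18%, 0.785% and 1.55%, or 1.17% ± 0.383 (SD, n = 3). The locus of EIF3L at chr22:38271999-38272018 had the same ends in every replicate and 0.459%, 0.403% and 0.627%. EIF3C and its near-identical copy EIF3CL had no cluster, and reads of such copies can be shared or dropped in mapping.

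The eIF4 genes had the most clusters of any role, 92, and 9 loci found in all replicates. They unwind the mRNA leader (EIF4A1, EIF4A2), assist the helicase (EIF4B, EIF4H), bind the cap (EIF4E) or hold the complex together (EIF4G1, EIF4G3), and EIF4G2 serves initiation without cap binding. The highest edit fraction of the loci in all replicates with a depth of at least 20 was at chr3:186507258-186507407 in EIF4A2, with 3.00%, 1.94% and 3.30%, or 2.75% ± 0.712 (SD, n = 3). It had 24, 16 and 13 edited reads and identical ends in the 3 replicates. A neighbouring locus at chr3:186506943-186507212 had 0.821% ± 0.230 on 28, 13 and 12 edited reads. Each replicate was higher at the first locus than at the second, by more than the spread between replicates. All 25 clusters of EIF4A2 carried the same exon number over a stretch of 5445 bases, and each was also listed under 4 small nucleolar RNAs, so its exons and introns could not be told apart from the labels.

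EIF4G2 had 3 loci found in all replicates. At chr11:10819093-10819317 the edit fraction was 1.95%, 0.658% and 0.674%, with replicate 1 apart from the others, and no base was covered by all replicates. At chr11:10820606-10820660 it was 0.630% ± 0.181 (SD, n = 3). EIF4H, at chr7:73609770-73609874, had 5, 17 and 11 edited reads and 0.791% ± 0.132. In EIF4B the edit fraction of its locus ran from 0.383% in replicate 3 to 2.15% in replicate 2, the widest ratio among the 33 loci at 5.62-fold. The cluster of replicate 3 spanned 75 bases with 11 C bases, and those of replicates 1 and 2 spanned 45 bases with 4. This ratio therefore compares partly different bases. EIF4E and EIF4G1, the cap-binding protein and the main scaffold, had 3, 1 and 0 clusters and 1, 1 and 0 clusters.

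EIF5A, an elongation and termination factor that carries the modified amino acid hypusine, held the deepest locus found in all replicates. At chr17:7215217-7215276 it had 20, 43 and 18 edited reads and an edit fraction of 0.381%, 0.285% and 0.487%, or 0.384% ± 0.102 (SD, n = 3), at a mean read depth between 847 and 1103. EIF5A has a near-identical relative, EIF5AL1, with 1 cluster in replicate 1, and reads that fit both were not separable here. In EIF5 the loci at chr14:103807331-103807465 and chr14:103808111-103808260 had 0.839% ± 0.202 and 1.15% ± 0.109, both in the exon numbered 21, which held 19 of the 29 exonic clusters of the gene. EIF5B, the GTPase that joins the ribosomal subunits, had 9, 6 and 2 clusters and no locus found in all replicates. EIF6 had no cluster.

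The elongation factors had few clusters for mRNAs that are known to be abundant. EEF1A1, which delivers aminoacyl-tRNAs, had 0, 2 and 3 clusters, and EEF2, which moves the ribosome, had 0, 1 and 0. The subunit genes EEF1D and EEF1G had 1 cluster each, both in replicate 1, and EEF1A2 and EEF1B2 had none. In EEF1A1 a cluster at chr6:74227259-74227318 in replicate 2 had 20 edited of 3636 covered C bases, an edit fraction of 0.550% with a 95% Wilson interval of 0.356 to 0.848%. An overlapping cluster in replicate 3 had 7 of 1220, or 0.574% (0.278 to 1.18%). None of the 6 loci of the eEF1 genes was found in all replicates. Such intervals cover counting error only and take the bases of one read as independent. Clusters were also listed under pseudogene copies of EEF1A1, and their values are given after the report.

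The release factors ETF1 and GSPT1 held 2 loci and 1 locus found in all replicates. In ETF1 the locus at chr5:137842880-137843029 had an edit fraction of 1.10%, 1.19% and 2.27%, or 1.52% ± 0.655 (SD, n = 3), on 7, 3 and 4 edited reads. In GSPT1, the GTPase partner of ETF1, the locus at chr16:11964341-11964460 had 2.59%, 2.13% and 1.87% at a mean read depth between 13.7 and 16.2, on 1, 2 and 2 edited reads. Its paralog GSPT2 had no cluster. Of the 60 genes in the lists of roles, the 10 with no cluster were EIF1AY, EIF2D, EIF2S3L, EIF2B5, EIF3C, EIF3CL, EIF6, EEF1A2, EEF1B2 and GSPT2. The data do not show whether their mRNAs were not expressed, unedited or too shallow to pass the filter.

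**Figure D3:**
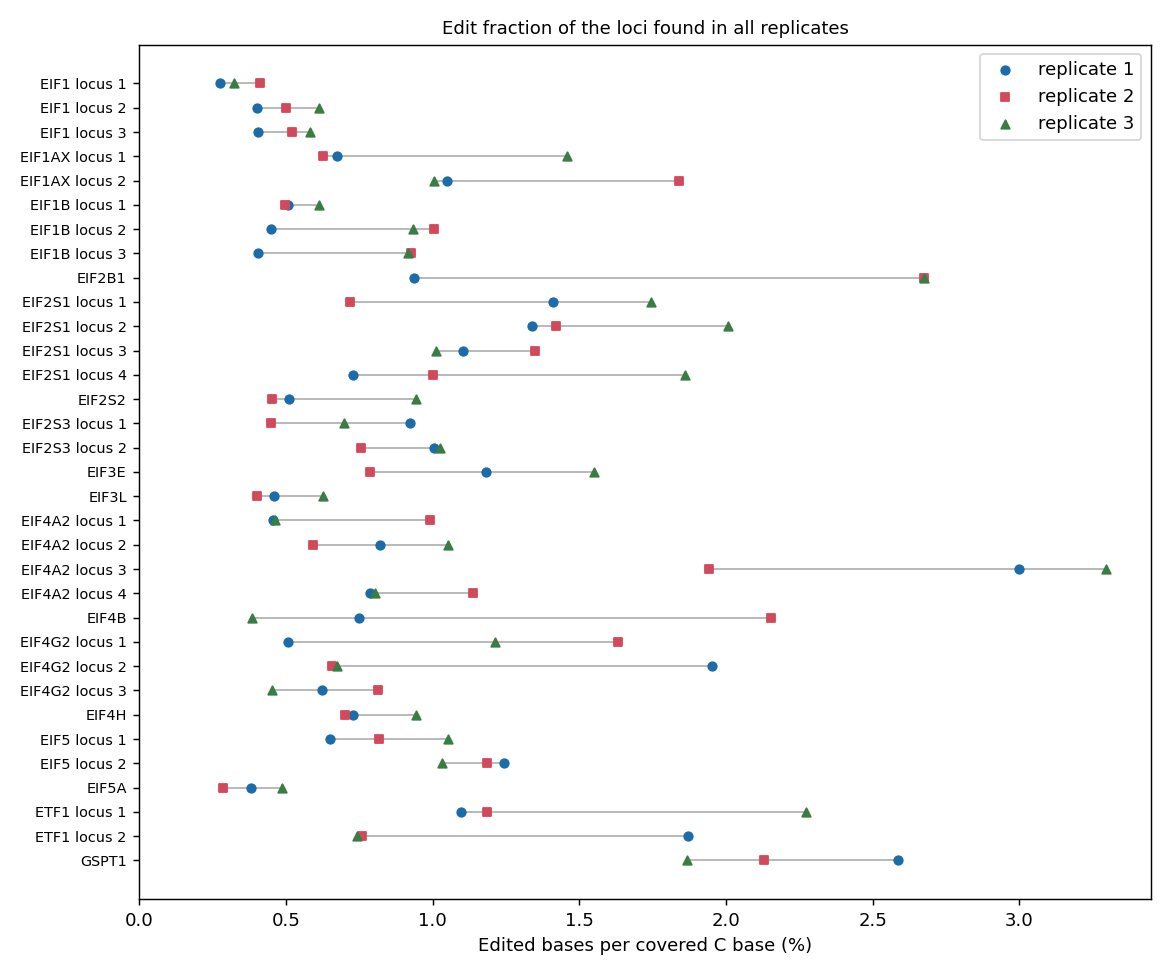
Edit fraction (x axis, edited bases per covered C base, %) of the 33 loci found in all replicates, one point per replicate, with loci of one gene numbered along the chromosome. The grey line joins the lowest and highest replicate. The third EIF4A2 locus reaches 3.30%, and the EIF1 and EIF5A loci stay under 0.7% in every replicate.

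Across the 33 loci the mean edit fraction had a median of 0.919% and ran from 0.337% to 2.75%, and over the 1586 loci of all genes its median was 1.13%. The SD between replicates was 28.7% of the mean at the median translation factor locus and 26.1% over all loci. The edit fraction was highest in replicate 3 at 17 of the 33 loci, in replicate 2 at 11 and in replicate 1 at 5. Over all 1586 loci the numbers were 739, 473 and 374 in the same order. Replicate 3 also had the fewest clusters and the fewest reads in clusters, and the part of this in the order of the edit fractions was not tested. The highest replicate was at least 2 times the lowest at 14 of the 33 loci, or 42.4%, and at 499 of the 1586 loci of all genes, or 31.5%. Clusters had the same ends in every replicate at 7 of the 33 loci and at 174 of the 1586. At the others the replicates cover partly different bases, so these spreads mix the extent of clusters with differences between replicates.

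Whether replicates differed by more than counting error was tested at loci whose clusters had the same start and end in every replicate, with an exact two-sided test of edited and unedited reads over the 3 replicates and Benjamini-Hochberg adjustment over all 174 such loci. The test called 4 of the 174 loci, or 2.30%, at an adjusted p under 0.05. It called 0 of the 7 translation factor loci, which lay in EIF1, EIF1AX, EIF2S1 (2 loci), EIF3L and EIF4A2 (2 loci). Of the 174 loci 17 had an unadjusted p under 0.05, and none of the 7 did. The lowest unadjusted p among the 7 was 0.394, in EIF1AX with 4 of 107, 3 of 89 and 5 of 63 reads edited. Edited reads were few at several of the 7, as at the EIF2S1 loci with 3, 3 and 2, and 1, 3 and 4. With 7 loci and such counts, the lack of calls does not show that these loci vary less than others. At the EIF4A2 locus with the highest edit fraction 24 of 352, 16 of 304 and 13 of 228 reads were edited, or 6.82%, 5.26% and 5.70%.

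Most clusters lay in exons. Exon numbers rise along the chromosome on both strands, so the exon numbered 0 is the 3′-most numbered exon of a gene on the minus strand. It held 61.4% ± 5.12 of the exonic clusters of translation factor genes on that strand and 62.0% ± 2.46 over all genes (SD, n = 3), counting clusters that list 1 gene. On the plus strand, where it is the 5′-most numbered exon, it held 6.77% ± 1.61 and 4.12% ± 0.230. The share on the minus strand differed by less than the spread between replicates. A numbered exon may join several exons. In EIF4A2 the same number ran over 5445 bases, and in EEF1A1 all 5 clusters, from chr6:74225534 to chr6:74227333, carried the number 0. These shares are therefore not shares of single terminal exons. In ETF1 the exon numbered 0 held 16 of 21 clusters, in EIF1AX 16 of 18, in EIF4G2 10 of 14 and in GSPT1 10 of 15. Other genes on this strand had few or no clusters in that exon, with 3 of 14 in EIF3E, 0 of 8 in EIF3A and 0 of 4 in EIF3G.

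**Figure D4:**
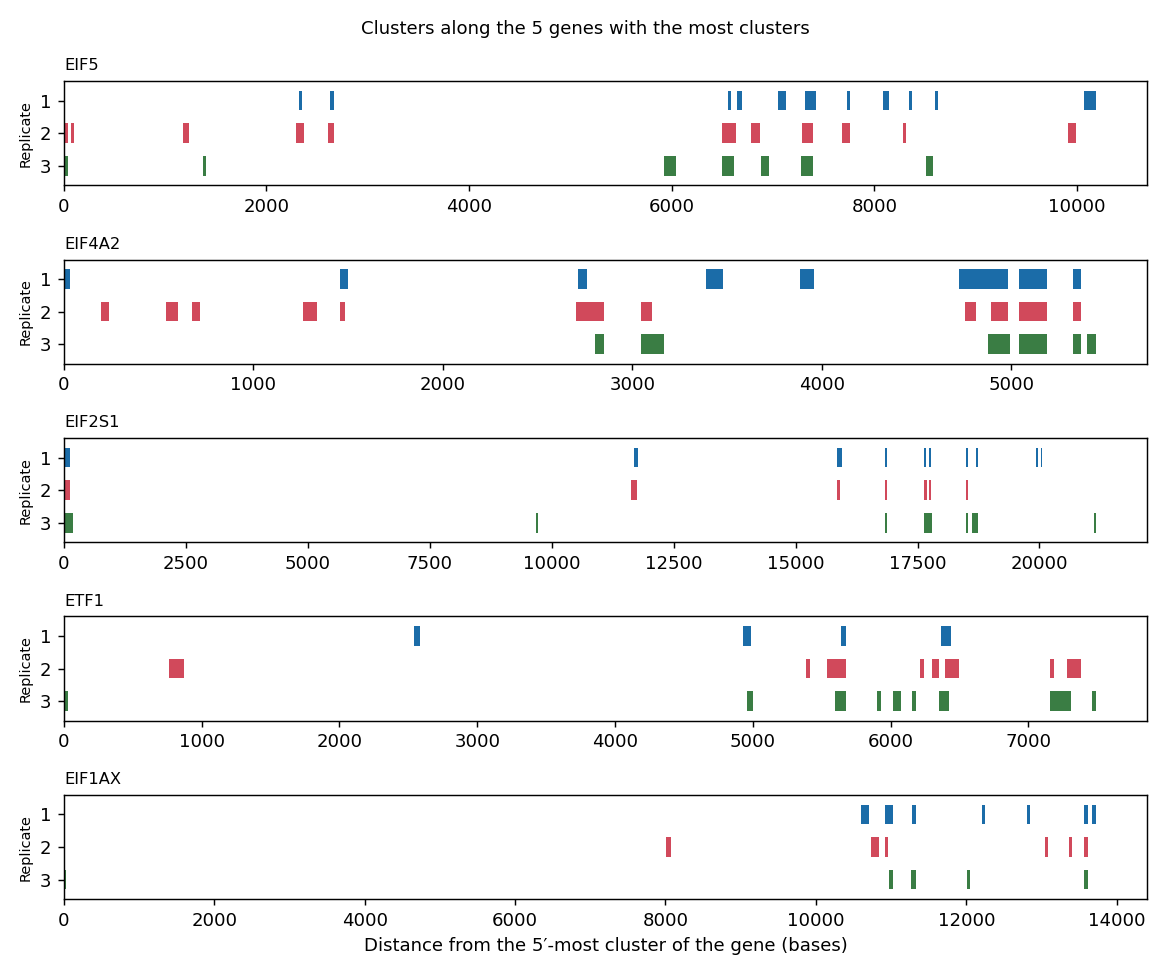
Clusters along EIF5, EIF4A2, EIF2S1, ETF1 and EIF1AX, drawn to scale for each replicate, with the distance in bases from the 5′-most cluster of the gene in the direction of transcription (x axis) and the replicate (y axis). Clusters of ETF1 and EIF1AX gather in the 3′ part, while those of EIF2S1 recur at several separate places.

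Within the 3′ stretches the clusters were not continuous. The 16 clusters of ETF1 in the exon numbered 0 formed 10 loci and covered 36.4% of the 2100 bases between the first and the last. In EIF1AX 16 clusters in 11 loci covered 22.6% of 3120 bases, and in EIF5 19 clusters in 14 loci covered 28.9% of 3690 bases. In EIF2S1 the exons numbered 4, 12 and 14 each held a single locus, which was found in all replicates.

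Introns held 16 of the translation factor clusters, 7, 8 and 1 in replicates 1, 2 and 3. That was 5%, 4.97% and 0.870% of their clusters, against 2.19%, 2.39% and 1.78% of all clusters, so the direction was not the same in replicate 3. As a mean of replicates the share was 3.61% ± 2.38 for translation factors and 8.43% ± 2.10 for cytosolic ribosomal protein genes (SD, n = 3). It was 4.64% ± 3.39 for aminoacyl-tRNA synthetases and 1.45% ± 1.26 for the other genes of translation. EIF4G3 had 6 of the 16 intronic clusters, all between chr1:21501666 and chr1:21502460. Their edit fractions lay between 1.44% and 7.14% at mean read depths between 9.55 and 17.3. The other 10 were EIF2S3 (3 clusters), EIF3D (3 clusters), EEF1D, EEF1E1, EEF2 and EIF3E (1 cluster each). No intronic cluster overlapped one of another replicate. The EEF2 cluster at chr19:3979473-3979502 was the only one of that gene, with 2 edited of 191 covered C bases, or 1.05% (95% Wilson interval 0.288 to 3.74%).

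The read depth and the coverage of C bases came apart in part of these clusters. Coverage per C base, which is the number of times a C of the cluster was read on average, was close to the mean read depth in most translation factor clusters, with a median ratio of 0.994. In 25 clusters of 13 genes the ratio was under 0.25, a bound chosen after the values were seen, and it was at most 0.109 in these and at least 0.407 in all others. They included all 10 intronic clusters outside EIF4G3 and 15 of the 400 exonic ones, or 6.01% of translation factor clusters against 2.46% of all clusters. As a mean of replicates the share was 5.77% ± 2.78 for translation factors and 25.92% ± 8.405 for cytosolic ribosomal protein genes (SD, n = 3). It was 5.75% ± 3.69 for aminoacyl-tRNA synthetases and 2.15% ± 2.11 for the other genes of translation. In an EIF5A cluster of replicate 2 the mean read depth was 766 and the coverage per C base 4.60, and in the EEF2 cluster 1003 and 19.1. These 25 clusters had 1 to 3 edited reads and a median edit fraction of 3.66%, against 0.985% in the other 391. None overlapped a cluster of another replicate. Over all genes, 50 of the 1005 clusters under this bound were found in all replicates, so 0 of 25 lay near the share over all genes. What set the 2 depth measures apart was not tested.

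**Figure D5:**
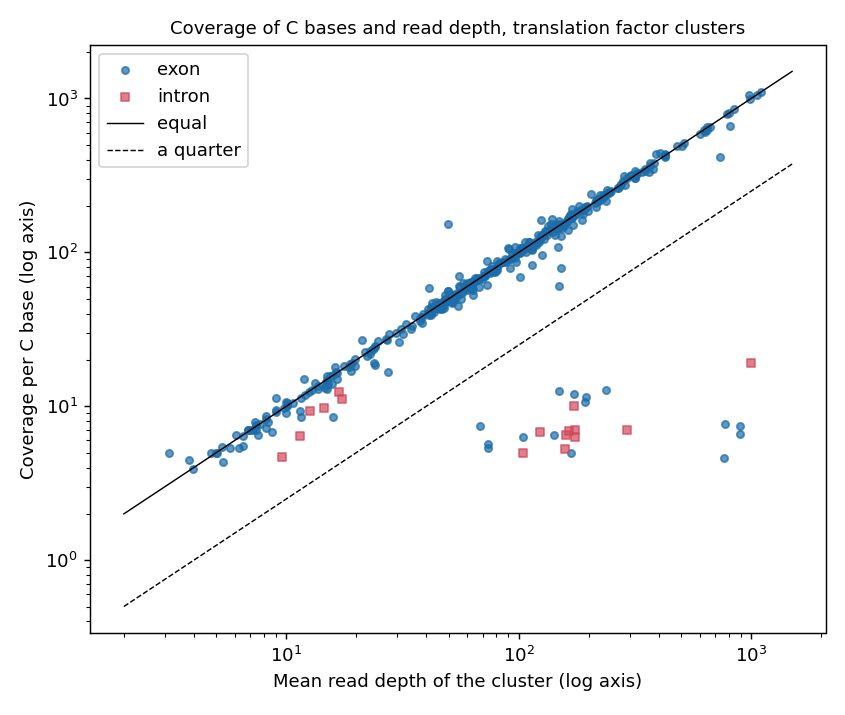
Coverage per C base (y axis, log scale) against mean read depth (x axis, log scale) for the 416 translation factor clusters, in exons and introns. Most points lie on the solid line of equal values, and 25 lie below the dashed line at 0.25 times the depth, among them 10 of the 16 intronic clusters.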

How the data were processed

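C-to-U editing was measured by RNA sequencing of polyA RNA in 3 replicates of HEK293XT cells with the RBFOX2-APOBEC1 fusion. The authors called edited sites with SAILOR, from which common SNPs were removed. They formed clusters with FLARE at an adjusted p-value of 0.1, joining windows up to 15 bases apart, as the names of the deposited tables state. Per the submitters' processing notes reads were aligned with STAR to hg19. Each replicate has its own table. For every cluster the authors deposited unscaled counts of reads, edited reads, C bases, covered C bases and edited bases. The edit fraction and the fraction of edited reads deposited by the authors were recomputed exactly from these counts, and are printed as percent. The deposited mean read depth is a coverage signal not scaled to library size. The deposited score runs from 0 to 1 and was used for alternatives only. Windows that did not pass were not analysed here, so total depth is unknown.

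A cluster was counted for a gene when any of its listed genes was a member. Values are means and SD over replicates, computed with pandas 2.3.3, NumPy 2.4.6 and SciPy 1.17.1 in Python 3.11.15, and drawn with matplotlib 3.10.9. The study calls the replicates biological, and the labels do not name separate cultures, so p-values measure the spread between these samples, whatever its source. The exact test was tested on simulated counts, and the overlap search was checked against a comparison of every pair of clusters on a single chromosome. The loci named were the 12 with the most edited reads and the 8 with the largest edit fraction at a depth of at least 20, the genes the 5 with the most clusters, and all intronic clusters and listed genes without a cluster; others were named to complete a role, after their values were seen. Members and lists were chosen with earlier results of these data known. Alternatives were stricter scores, depths, edited reads and overlaps, other averages and leaving out each replicate.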

Additional observations from a re-analysis of the deposited data

Results flagged for a closer look

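The pseudogenes left out by the rule held a signal outside the comparisons of the report. Clusters in 7 copies of EEF1A1 had 502, 490 and 331 edited bases in replicates 1, 2 and 3, a mean of 441 ± 95.5 (SD, n = 3), in 10, 12 and 9 clusters, and 8 of their loci were found in all replicates. EEF1A1 itself had 0, 22 and 11 edited bases in 0, 2 and 3 clusters. EEF1A1P6 alone had 385, 291 and 230 edited bases, at edit fractions of 0.465%, 0.488% and 0.547%, on 7241, 6131 and 3629 reads, and EEF1A1P5 had 69, 106 and 48. There were no control samples to set beside these counts, and any cluster holds edited bases by the way it was called. The copies are near-identical to EEF1A1, and whether their reads came from the copies or from EEF1A1 was not tested.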

How the results depend on the processing

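When scores under 0.95 were left out the median edit fraction was 1.08%, and when those under 0.99 were left out it was 1.17%, with 22 genes having a cluster in every replicate, 80 clusters per replicate and 19 loci found in all replicates. At a mean read depth of at least 50 there were 20 genes with a cluster in every replicate, 92.3 clusters, 26.3% found in all replicates and a median of 0.719%. With at least 2 edited reads there were 110.3 clusters, 25.6% found in all replicates and a median of 0.853%. Factors proper gave a median of 0.952%. Where overlaps had to span 50% of each cluster, 10.96% of clusters and 19 loci were found in all replicates. The mean edit fraction was 1.69% and the pooled one 0.710%. Without clusters of low coverage per C base, an alternative chosen after seeing the data, the median was 0.978%. Leaving out a replicate gave 33 to 36 genes, 127.5 to 150.5 clusters, 32.5% to 34.4% of clusters and 40 to 51 loci found in both others, and medians of 1.02% to 1.04%; fewer replicates make the last criteria easier to meet by construction. The exact test called 0 translation factor loci under each of its 6 alternatives. Of 55 alternative values, 34 stayed within 1 SD of the value reported or, for numbers of genes and loci, within 1.5 times of it, and 21 did not. The files hold clusters that passed the filter only, so a gene without one may be not expressed, unedited or too shallow.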
